A study of Mus musculus with 8 samples.

Results

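March1 and 9 genes of the MHC class II antigen presentation pathway (Ciita, Cd74, H2-Aa, H2-Ab1, H2-Eb1, H2-DMa, H2-DMb1, H2-Oa and H2-Ob) were followed in mouse pro-B cells treated with dTAG-13 or with DMSO. They were found by name and are 10 of the 47937 genes counted. They were chosen by their measured change between dTAG-13 and DMSO in these same libraries as well as by their roles, so that contrast is given for these 10 genes as a description, by values, folds and standard errors, with no p-value and no call. The cells were A-MuLV transformed pro-B cells, immortalised by Abelson murine leukaemia virus, with the genotype EBF1-dTAG_N. In all of them the endogenous EBF1, a transcription factor of early B cells, had been replaced by an exogenous modified gene that carries a degradation tag. DMSO, the solvent control, was given to 4 cultures and 0.5 µM dTAG-13, a small molecule that brings tagged proteins to an E3 ligase for degradation, to 4 others, each for 6 h. The DMSO libraries are titled as 0 h although their treatment is given as 6 h. The libraries of a group are described as biological replicates, but whether they came from 1 clone or separate lines is not given. No cells with untagged EBF1 were treated, so loss of EBF1 and other effects of dTAG-13 cannot be told apart, and RNA does not measure the loss of the protein.

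MHC class II molecules are pairs of an α and a β chain that show peptides from endosomes to CD4+ T cells. CIITA is the coactivator that switches their genes on. It has no DNA-binding domain of its own and is held at the promoters by RFX, CREB and NF-Y proteins bound to a conserved set of boxes. CD74, the invariant chain, fills the groove of new class II molecules, H2-DM swaps its remnant for peptide, and H2-DO, made mainly in B cells, restrains H2-DM. MARCH1 is a membrane-bound ubiquitin ligase of B cells and immature dendritic cells that tags the tail of the class II β chain and of CD86, and so lowers their amount on the surface. In the mouse, class II appears on the surface late in B cell development.

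Libraries held between 28982316 and 38999496 reads over exons, and reads in introns were taken as reads over the whole gene minus reads over exons. They made up 20.4% to 27.3% of all reads per library. Ebf1 RNA itself ranged from 608 to 639 exonic CPM (read counts scaled to the size of the library) in DMSO and from 723 to 816 CPM after dTAG-13. Of 10 pro-B markers, 9 had enough exonic reads for a test and 8 were lower after dTAG-13, beside 14.0% of all tested genes. Kit had no exonic read in any library and Dntt averaged 1.25 CPM in DMSO. All 4 T cell markers were at 0.

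March1 RNA was scarce in DMSO and several times higher after dTAG-13, in exons and in introns. Exonic March1 was 0.760, 0.449, 0.705 and 0.757 CPM in DMSO and 5.44, 6.25, 6.15 and 6.77 CPM after dTAG-13. The groups were far apart, with the lowest dTAG-13 library several times above the highest DMSO library. The mean went from 0.668 ± 0.148 to 6.15 ± 0.549 CPM (SD, n = 4), a fitted 9.10-fold difference (log2 3.19 ± 0.19 SE). Only 3 of the 12889 genes tested in exonic reads had a larger fitted increase. At least 8-fold higher at an adjusted p below 0.05 held for 6 genes, 0.0466% of those tested. In bulk RNA, more cells with March1 RNA and more March1 RNA per cell cannot be told apart.

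In introns, March1 was 3.97, 5.72, 5.06 and 3.74 CPM in DMSO and 72.5, 55.4, 59.0 and 71.0 CPM after dTAG-13. Again no library of one group came near the other. The fitted difference was 14.0-fold (log2 3.8 ± 0.14 SE), also the 4th largest increase, among 11229 genes tested in intronic reads. There, 8 genes (0.0712%) were at least 8-fold higher at an adjusted p below 0.05. The exonic change was 0.62 ± 0.27 (SE) smaller than the intronic one on the log2 scale. Over all genes, 29 of 10026 (0.289%) passed the test of that difference, and March1 was not among them. The authors' deposited table gives March1 a log2 change of 3.16 (SE 0.215) in exons and 3.8 (SE 0.160) in introns.

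**Figure D1:**
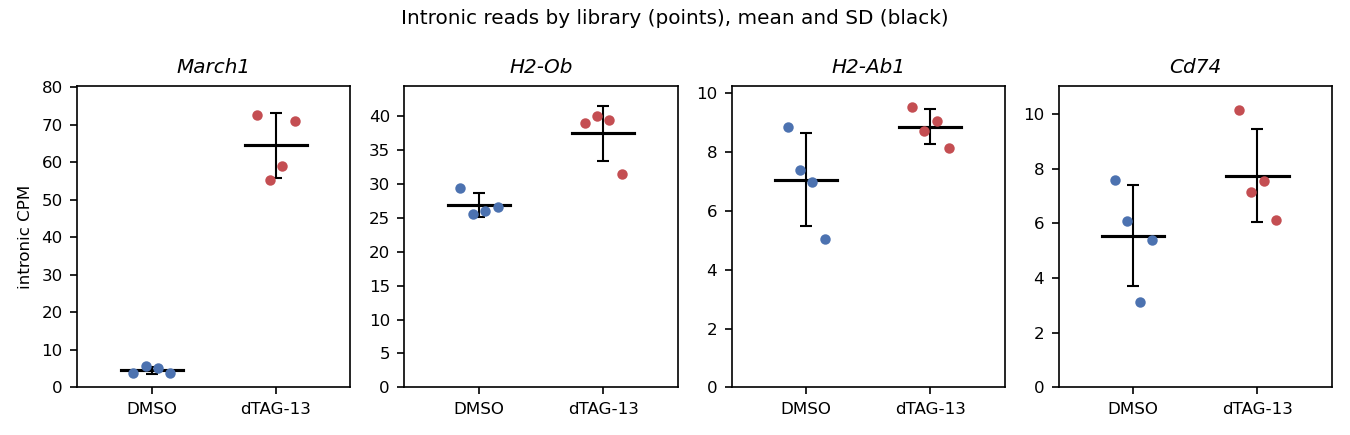
Intronic CPM in each of the 8 libraries for the 4 genes of the set with enough intronic reads for a test, with the mean and SD in black. March1 sits between 3.74 and 5.72 CPM in DMSO and between 55.4 and 72.5 CPM after dTAG-13, the H2-Ob groups are also separate, and those of H2-Ab1 and Cd74 overlap.

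Most March1 reads came from introns. They were 67.9 ± 8.6% of the gene's reads in DMSO and 75.9 ± 2.98% after dTAG-13 (SD, n = 4). The introns of the gene span 847 kb and its exons cover 7146 bases. March1 lies at chr8:65617900-66471637 on the plus strand (GRCm38, GENCODE vM21), with 11 annotated transcripts. RefSeq places starts of the gene at positions 65618040, 65618525 and 66386301, the last 768 kb into the gene, and counts per gene do not tell which start was used. The antisense gene Gm15354 spans the last start and had 1 exonic read in DMSO and 33 after dTAG-13. The strand setting of the counting is not given in the sources used here, so reads of the strands cannot be told apart.

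The letters before the first and the last start are shown because March1 has 2 separate regions from which transcription can begin. Both are from RefSeq (GRCm38.p6, plus strand, outside annotated exons), at chr8:65617790-65617899 and chr8:66386051-66386293.
March1, first start: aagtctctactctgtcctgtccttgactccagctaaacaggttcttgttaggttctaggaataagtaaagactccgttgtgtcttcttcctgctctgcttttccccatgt
March1, last start: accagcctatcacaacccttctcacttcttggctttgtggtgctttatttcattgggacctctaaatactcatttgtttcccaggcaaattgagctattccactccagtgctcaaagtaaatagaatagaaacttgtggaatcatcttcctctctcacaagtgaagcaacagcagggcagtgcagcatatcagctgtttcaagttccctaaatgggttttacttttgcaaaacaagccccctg
CCCNNGGG, the core of the palindrome that EBF1 binds, was searched on both strands in windows of 250 bases before to 50 after each start. It matched in 13.7% of 32851 windows genome-wide and in none of the 10 windows of the genes followed here, March1 included. Of other class II genes searched, H2-DMb2, a close copy of H2-DMb1, had 2 matches in its window. The window of H2-Eb2 had none. These windows hold only the letters next to the starts.

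Of the genes beside March1, only Tma16 was tested, and it did not pass. Tma16, which encodes a translation machinery associated protein, begins 1481 bases past the end of March1 and had 17.6 ± 1.3 CPM in DMSO and 17.2 ± 1.08 CPM after dTAG-13 (SD, n = 4; log2 -0.03 ± 0.07 SE, adjusted p = 0.806). Its intronic reads differed by 0.16 ± 0.11 (adjusted p = 0.395). BC030870, 488337 bases before March1, had no exonic read and was not tested.

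Of all genes tested, 5 came closest to the pattern of March1 over the 8 libraries, by the Euclidean distance between log2 CPM centred on the DMSO mean, with 1 predicted gene passed over. Sla2, an adaptor that dampens antigen receptor signalling, was nearest at a distance of 0.99, with 0.576 ± 0.243 CPM in DMSO and 4.03 ± 0.334 CPM after dTAG-13 (SD, n = 4). Angptl4, a secreted inhibitor of lipoprotein lipase, followed at 1.39, with 1.04 ± 0.215 and 13.3 ± 0.488 CPM. Il12rb1, a receptor chain for interleukins 12 and 23, stood at 1.70, with 0.909 ± 0.217 and 5.31 ± 0.642 CPM. Ckb, a creatine kinase, and Cnn2, a calponin, came next at 1.83 and 1.93. These genes were picked for their likeness, so their increase is part of the choice.

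Ciita, the coactivator, was at the edge of detection. It had no exonic read in any DMSO library and 5, 4, 7 and 10 exonic reads in the 4 treated ones, too few to pass the filter on low counts. The dTAG-13 libraries were thus all above the DMSO libraries. Against a floor of 3 counts over the DMSO group, the 26 reads after dTAG-13 put Ciita 7.72-fold higher. The floor covers counting error in DMSO only, and not the error of the 26 reads or variation between cultures, so this is not a strict lower bound. Intronic reads numbered 4 in DMSO and 6 after dTAG-13 and overlapped. Dexi overlaps Ciita (chr16:10480059-10528418) on the opposite strand. It had 1046 exonic reads in the DMSO libraries, in which Ciita had 0, and its intronic reads were higher after dTAG-13 (log2 0.53, adjusted p = 0.00394), its exonic reads not by the test (0.22, adjusted p = 0.115). Clec16a, 16921 bases past the end of Ciita, differed by 0.12 (adjusted p = 0.103). Tvp23a, 32697 bases before Ciita, had 5 exonic reads in DMSO and 0 after dTAG-13, too few for a test.

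Most of the proteins that CIITA works with did not pass the test. Of 10 genes of class II transcription, all tested, 1 was higher and 1 lower in exonic reads (14.3% and 14.0% over all genes), with a list median of 0.07 on the log2 scale beside 0.0 for all genes. Ep300, a histone acetyltransferase, went from 183 ± 9.73 to 220 ± 9.30 CPM (log2 0.26, adjusted p = 1.54e-05). Creb1 went from 137 ± 2.22 to 127 ± 4.77 CPM (log2 -0.11, adjusted p = 0.0371). The Creb1 call was lost with no count filter (adjusted p = 0.0653) and without DMSO replicate 1, 3 or 4 or dTAG-13 replicate 1 or 3, at -0.08 to -0.11 with an adjusted p of up to 0.145. Rfx5, Rfxank, Rfxap, Nfya, Nfyb and Nfyc, whose products bind the boxes, did not pass it.

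Genes known to act upstream of Ciita, at its promoters or in signalling, moved in both directions. Of 13, 12 were tested and 6 were higher and 5 lower in exonic reads (14.3% and 14.0% over all tested genes). Socs1, which restrains JAK kinases, rose from 38.3 ± 0.815 to 63.6 ± 3.34 CPM (log2 0.73, adjusted p = 9.2e-13). Pax5, the B cell commitment factor, fell from 576 ± 14.6 to 410 ± 10.6 CPM (log2 -0.49, adjusted p = 6.12e-12). Tcf3, which encodes the E2A proteins, fell from 459 ± 5.39 to 333 ± 11.3 CPM (log2 -0.46, adjusted p = 2.79e-11). These 3 moved the same way in introns, with log2 changes of 1.04, -0.47 and -0.38. Jak1 (log2 0.25, adjusted p = 7.07e-06) and Irf8 (log2 -0.13, adjusted p = 0.00591) passed in exons and not in introns. Intronic Jak1 (0.19, adjusted p = 0.0574) did pass by DESeq2 (adjusted p = 0.0201), at a minimum count of 30 (0.0492), with a replicate block (0.0478) and without dTAG-13 replicate 3 (0.0424). Irf8 did not pass in whole-gene counts (adjusted p = 0.0658). Prdm1, a repressor of Ciita in plasma cells, had no exonic read.

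The class II genes lie together on chromosome 17. The pair of boxes at which the class II regulators assemble can be read in the RefSeq windows of some of them, and is shown because genes with and without RNA carry it. Capitals mark GCAAC, the core of the X box, and TGATTGG, the core of the Y box bound by NF-Y. These letters were settled after the windows had been read.
H2-Oa (chr17:34092291-34092339, plus strand): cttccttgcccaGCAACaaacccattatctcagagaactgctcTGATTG
H2-Ob (chr17:34238806-34238862, plus strand): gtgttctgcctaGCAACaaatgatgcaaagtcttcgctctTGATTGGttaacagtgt
H2-Aa (chr17:34287857-34287916, minus strand): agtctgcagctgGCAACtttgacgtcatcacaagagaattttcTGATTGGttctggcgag
H2-Eb1 (chr17:34305764-34305822, plus strand): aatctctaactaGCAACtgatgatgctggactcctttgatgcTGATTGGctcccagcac
H2-Eb2 (chr17:34325531-34325589, plus strand): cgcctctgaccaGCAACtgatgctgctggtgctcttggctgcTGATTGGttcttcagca
The last base of the Y core of H2-Oa lies in an annotated exon and is not printed. GCAAC matched in 35.2% and TGATTGG in 7.82% of all 32851 windows, on either strand. Both on the same strand, in this order and 15 to 40 bases apart, occurred in 84 windows (0.256%). Windows were at hand for 7 of the 10 genes, and 4 of these held the pair, with gaps of 26, 23, 26 and 25 bases in the order printed. The windows of H2-DMa, H2-DMb1 and March1 did not hold the pair. Those of H2-DMa belong to starts at 34122832 and 34125518, inside the annotated gene (chr17:34119541-34139101), and letters beside any other start of H2-DMa were not searched. That of H2-DMb1 held TGATTGG without GCAAC, and windows of H2-DMa and March1 held GCAAC without TGATTGG. Only these exact letters were matched, so a box with other letters would be missed. H2-Eb2, a further class II β gene, held the pair with a gap of 25 bases.

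Among the genes that encode the class II chains themselves, H2-Ab1 was well expressed and H2-Aa and H2-Eb1 were not. H2-Ab1, the I-A β chain (chr17:34257689-34269419), was 38.4, 43.7, 39.5 and 41.6 exonic CPM in DMSO and 49.3, 47.1, 51.8 and 46.3 CPM after dTAG-13. The groups did not overlap. The fitted difference was 1.19-fold (log2 0.25 ± 0.05 SE) in exons and 0.33 ± 0.19 (log2, SE) in introns, where the groups overlapped. H2-Aa, the I-A α chain that pairs with it, had 0, 1, 2 and 0 exonic reads in DMSO and 0, 3, 3 and 0 after dTAG-13. H2-Eb1, the I-E β chain, had 1 exonic read in DMSO and 2 after dTAG-13. Both were at or below the floor in DMSO, so no fold is given. Of intronic reads, H2-Aa had 5, all in 1 dTAG-13 library, and H2-Eb1 had 1.

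H2-Eb2, which lies 8991 bases past H2-Eb1, had a larger fitted change than H2-Ab1, a difference that was not tested. Its exonic values were 5.01, 5.32, 5.61 and 5.14 CPM in DMSO and 9.98, 11.1, 10.8 and 10.4 CPM after dTAG-13. The groups were separate, and the rise was 1.0 ± 0.1 (log2, SE) in exons (adjusted p = 9.63e-09) and 1.11 in introns (2.15-fold, adjusted p = 2.25e-05). On the other flank of the class II genes, Col11a2, a collagen gene, differed by 0.16 (adjusted p = 0.26). Between them, 2 of 5 other immune or chromatin genes of the locus passed in exons and in introns, all higher. Over all tested genes, 14.3% were higher in exons and 8.26% in introns. The genes that passed are named here. They were Tap2, a subunit of the peptide transporter of class I (log2 0.18, adjusted p = 0.000946), and Brd2, a chromatin reader (0.14, adjusted p = 0.00299).

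Cd74, the invariant chain on chromosome 18, was 17.9, 14.2, 13.02 and 14.9 exonic CPM in DMSO and 21.1, 15.8, 16.6 and 18.8 CPM after dTAG-13. These groups overlapped, with DMSO replicate 1 above 2 dTAG-13 libraries. The fitted difference was 1.21-fold (log2 0.27 ± 0.09 SE). Over the alternatives it ranged from 0.19, without dTAG-13 replicate 1, to 0.36. Intronic Cd74 differed by 0.49 ± 0.25, also with overlap, and by 0.255 (SE 0.252) in the authors' deposited table. Of its neighbours, Rps14, a ribosomal protein gene, differed by -0.05 (adjusted p = 0.451), and Tcof1, a nucleolar protein gene 1103 bases away, fell by 0.25 on the log2 scale (adjusted p = 4.29e-06).

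The H2-DM genes, whose products load peptide, had few reads. H2-DMa was 0.104, 0.414, 0.131 and 0.298 exonic CPM in DMSO and 0.163, 0.740, 0.571 and 0.657 CPM after dTAG-13. The first dTAG-13 library lay within the DMSO range. The fitted difference was 1.18 ± 0.50 (log2, SE), and 0.95 to 1.55 over the alternatives. In the authors' deposited table it is 0.186 (SE 0.316). Brd2, which overlaps H2-DMa on the opposite strand, had 480 ± 13.8 CPM in DMSO and 527 ± 11.5 CPM after dTAG-13 (SD, n = 4). H2-DMb1 was 1.11, 1.14, 1.23 and 1.49 CPM in DMSO and 1.96, 1.89, 1.90 and 1.23 CPM after dTAG-13. The fourth dTAG-13 library was at the level of DMSO, and the fitted difference was 0.49 ± 0.25 (log2, SE). The authors' deposited value is 0.275 (SE 0.246). H2-DMb1 has a close copy, H2-DMb2 (log2 0.72 ± 0.29 SE, adjusted p = 0.067), and reads of these genes may have been split between them.

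Both H2-DO genes, whose products restrain H2-DM, were higher in every dTAG-13 library than in any DMSO library. H2-Oa, the α chain (chr17:34092340-34095234), was 4.35, 4.94, 3.81 and 4.57 exonic CPM in DMSO and 6.36, 6.51, 7.27 and 6.80 CPM after dTAG-13. The groups were separate, and the fitted difference was 1.53-fold (log2 0.61 ± 0.12 SE). The antisense gene BC051537 overlaps H2-Oa, and had 31 exonic reads in DMSO and 105 after dTAG-13 (log2 1.57, adjusted p = 0.01), beside 584 for H2-Oa in DMSO. H2-Ob, the β chain (chr17:34238903-34254414), was 57.1, 56.5, 56.7 and 59.0 CPM in DMSO and 71.3, 74.0, 74.7 and 70.1 CPM after dTAG-13. These groups were separate too, and the fitted difference was 1.27-fold (log2 0.34 ± 0.04 SE). Intronic H2-Ob was 29.4, 25.6, 25.98 and 26.5 CPM in DMSO and 39.0, 40.01, 39.3 and 31.4 CPM after dTAG-13 (log2 0.48 ± 0.10 SE), again without overlap.

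**Figure D2:**
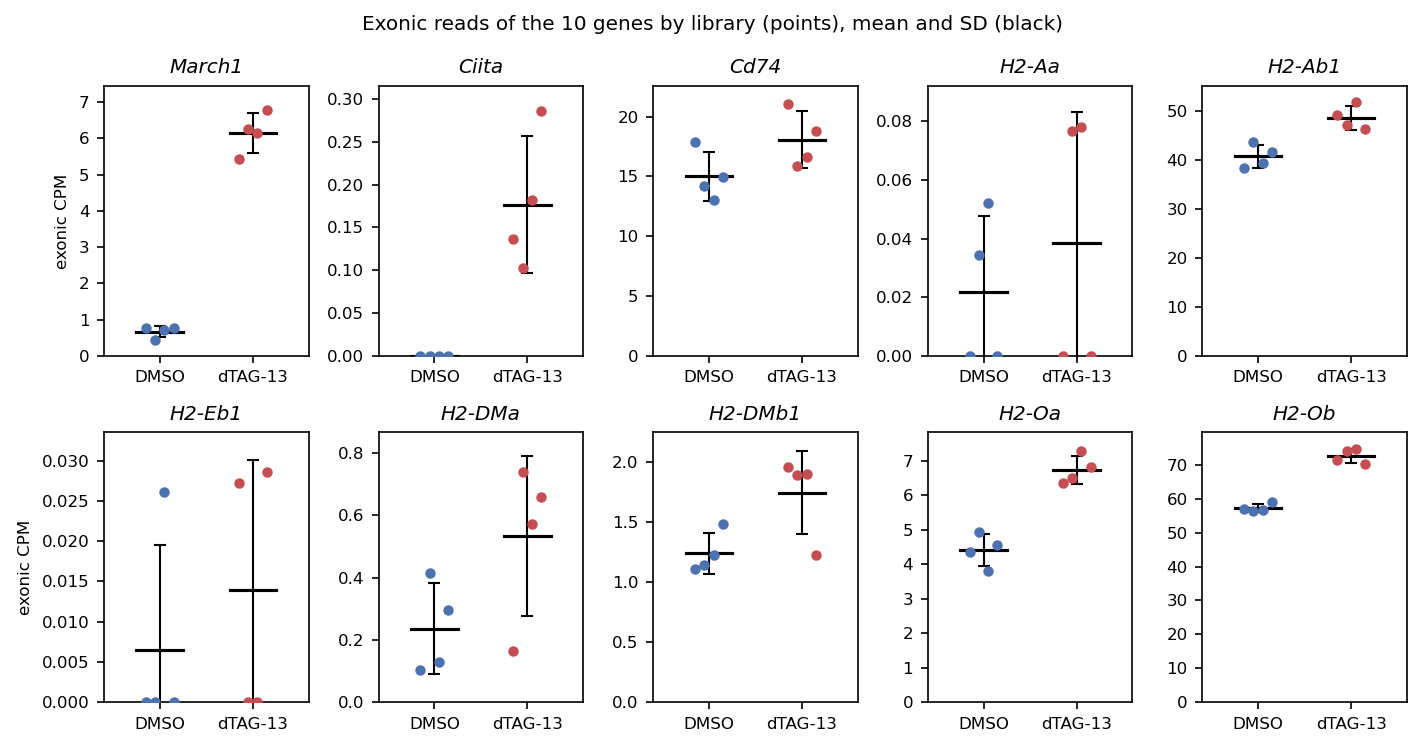
Exonic CPM of the 10 genes in each of the 8 libraries (points; linear axes from 0, each gene with its own), with the mean and SD in black. March1, H2-Ab1, H2-Oa and H2-Ob have separate groups, Ciita has reads in the dTAG-13 libraries only, and in H2-DMb1 the dTAG-13 library at 1.23 CPM lies among the DMSO libraries.

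Of the 10 genes, 7 had enough exonic reads to pass the filter on low counts. In 4 of the 7 the dTAG-13 libraries were all above the DMSO libraries, beside 14.2% of tested genes. Their median log2 difference was 0.49, beside 0.0 over all. In introns 4 genes passed that filter, and the groups of March1 and H2-Ob were separate, beside 9.51%. Nothing is read from these counts, since the genes were chosen with the contrast known. Ciita, H2-Aa and H2-Eb1 had too few exonic reads to enter them.

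Per kb of annotated exon, the 10 genes covered a graded range of levels in DMSO, down to 0 for Ciita. H2-Ab1 was highest at 15.9 ± 0.911 exonic CPM per kb, followed by H2-Ob at 10.7 ± 0.211, Cd74 at 8.94 ± 1.23 and H2-Oa at 3.14 ± 0.336 (SD, n = 4). The median over tested genes was 5.19, so the first 3 lay above it. Then came H2-DMb1 at 0.738 ± 0.103, March1 at 0.0934 ± 0.0207 and H2-DMa at 0.0686 ± 0.0424. H2-Aa, H2-Eb1 and Ciita were at 0.00571 or less. Neighbours in this order whose libraries overlapped in DMSO were H2-Ob and Cd74, March1 and H2-DMa, H2-Aa and H2-Eb1, and H2-Eb1 and Ciita.

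In dTAG-13, March1 reached 0.861 ± 0.0768 CPM per kb, and its libraries then overlapped those of H2-DMb1 (1.04 ± 0.205) and no longer those of H2-DMa (0.155 ± 0.0742). It had stood above 1.88% of the tested genes in DMSO and stood above 17.3% after dTAG-13. With dTAG-13 March1 thus still stood among the lower-expressed genes. H2-Ab1 remained at the top with 18.9 ± 0.961, ahead of H2-Ob at 13.5 ± 0.406. The lengths come from an annotation in which 9 of the 10 genes carry another version than in the deposited counts, so levels per kb are approximate.

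**Figure D3:**
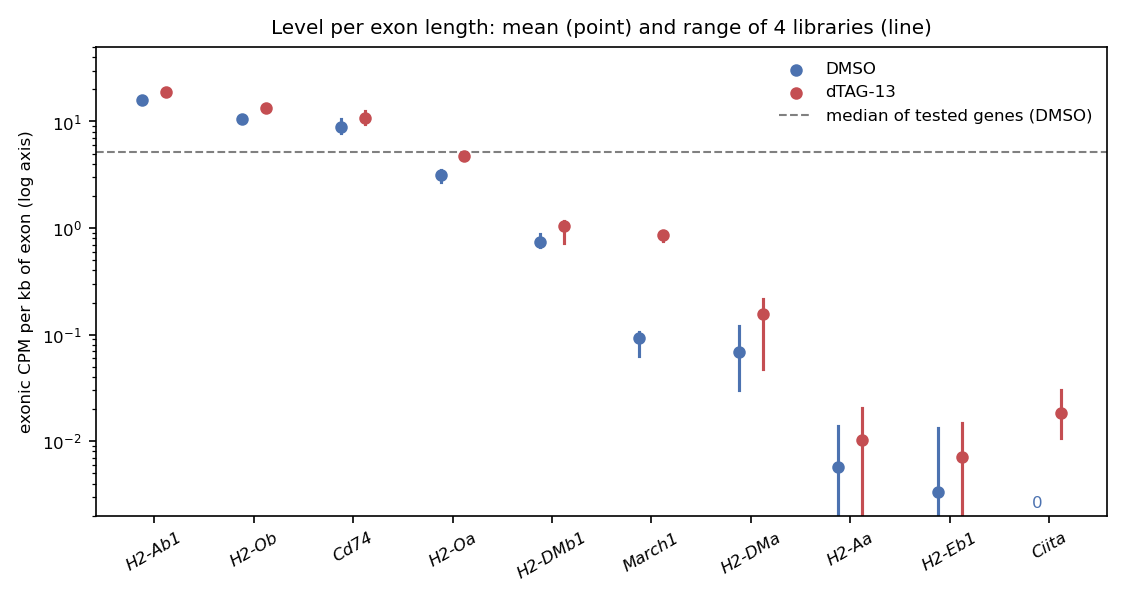
Exonic CPM per kb of exon on a log axis, as the mean (point) and range (line) of 4 libraries, in DMSO (blue) and dTAG-13 (red), ordered by the DMSO level. Lines that reach the bottom of the axis include libraries at 0, the dashed line is the median of tested genes in DMSO at 5.19, and March1 moves from 0.0934 to 0.861.

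Beyond the 10 genes, 67 genes of the wider pathway were listed, and 50 were tested in exons. Of these, 15 were higher (14.3% over all tested genes) and 10 lower (14.0%). In introns 49 were tested, with 12 higher (8.26% over all) and 7 lower (8.5%). Regulators of Ciita, described above, made up 11 of the 25 genes that passed in exons.

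**Figure D4:**
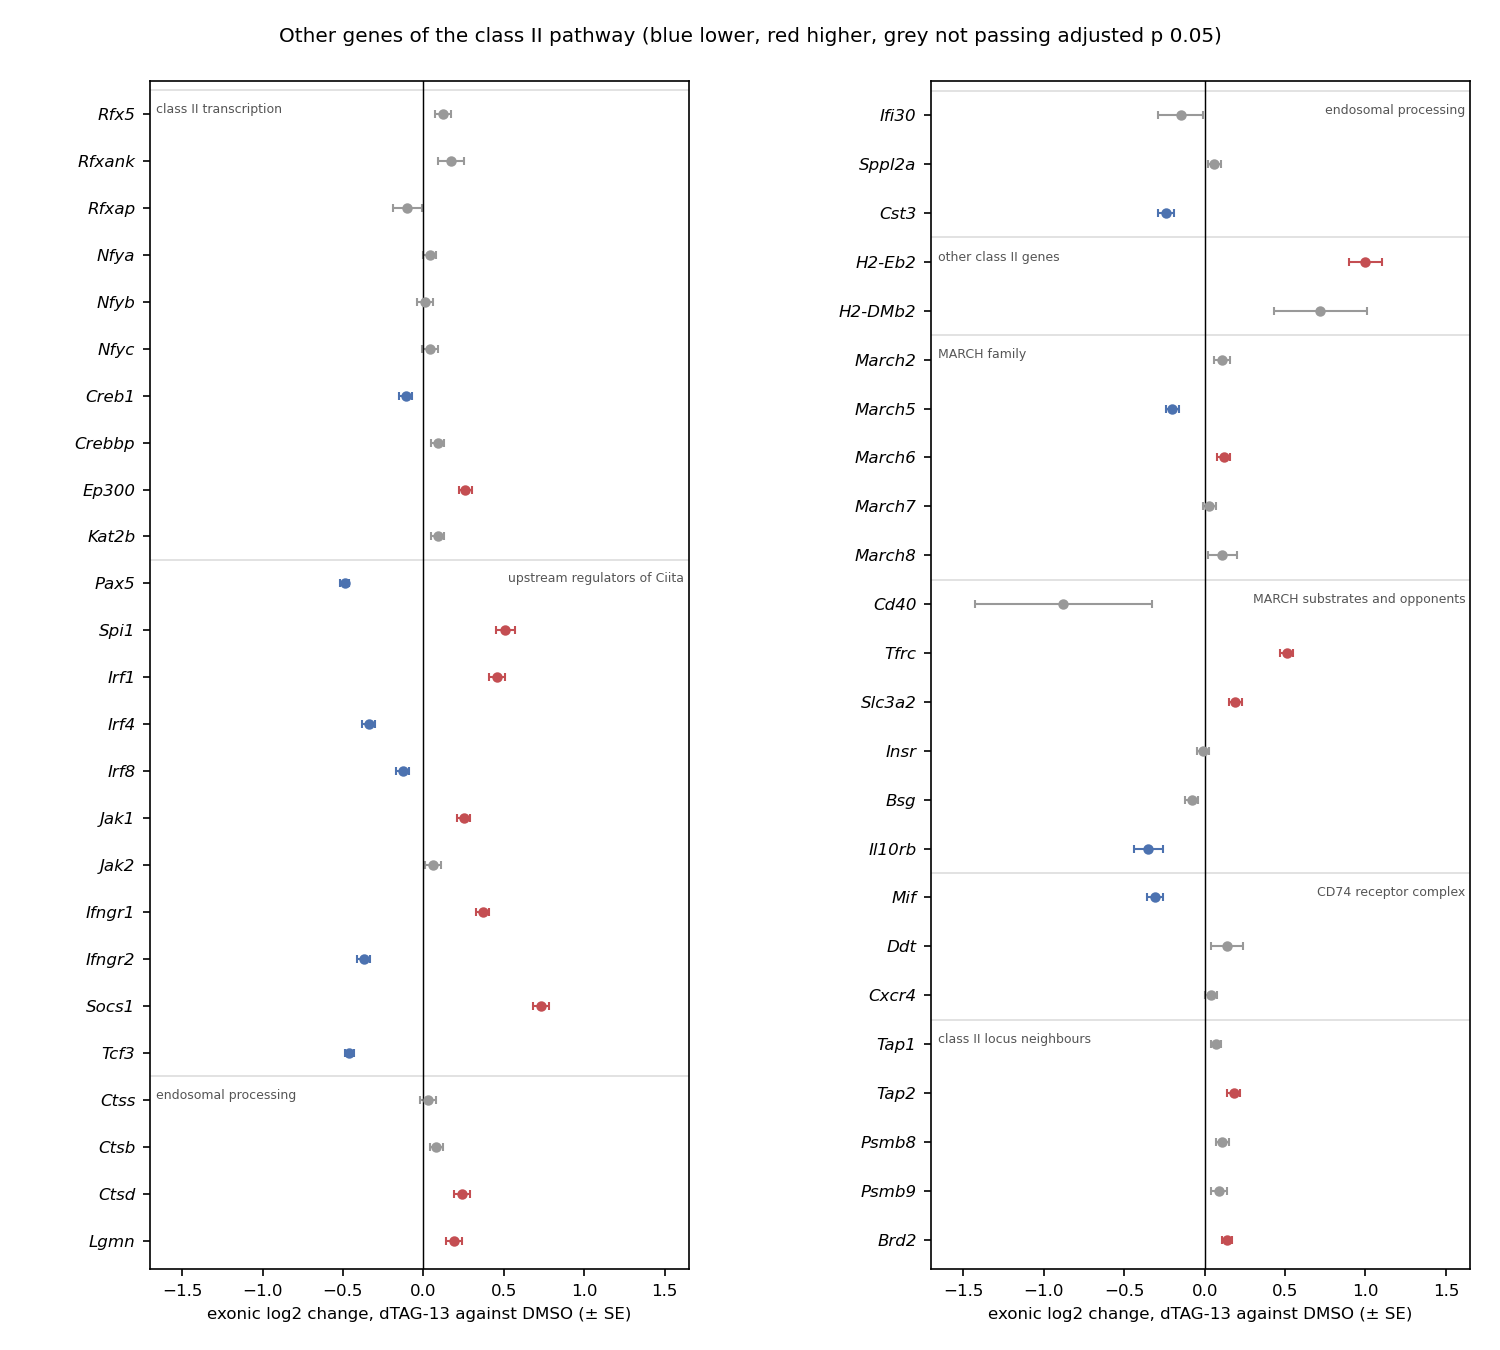
Exonic log2 change of the tested genes of the wider pathway that are reported here, after dTAG-13 against DMSO, with its standard error, by list. Red and blue mark genes higher and lower at an adjusted p below 0.05, from Socs1 at 0.73 and H2-Eb2 at 1.0 to Pax5 at -0.49.

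Of 9 genes of endosomal processing, 7 were tested in exons, 2 were higher and 1 lower (14.3% and 14.0% over all tested genes). Ctsd, an aspartic protease of lysosomes, went from 44.4 ± 1.38 to 52.3 ± 2.73 CPM (log2 0.24, adjusted p = 0.00025). Lgmn, the asparaginyl endopeptidase, rose by 0.19 (adjusted p = 0.00285), and Cst3, an inhibitor of cysteine proteases, fell by 0.24 on the log2 scale (adjusted p = 0.000423). Ctsd and Cst3 did not pass in introns. Ctsl and Ctsh had no exonic read.

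Of the other 10 MARCH ligases, 5 were tested in exons, 1 was higher and 1 lower (14.3% and 14.0% over all tested genes). March6, of the endoplasmic reticulum, was higher by 0.12 (adjusted p = 0.0315) and March5, of mitochondria, lower, with a log2 change of -0.20 (adjusted p = 0.00114). The March6 call was lost in whole-gene counts (adjusted p = 0.134) and without DMSO replicate 2, 3 or 4 or dTAG-13 replicate 1 or 3, at 0.10 to 0.11. March8, the family member closest to MARCH1 and also a ligase for class II, went from 13.3 ± 1.81 to 14.3 ± 0.897 CPM, a difference of 0.11 ± 0.09 that did not pass (adjusted p = 0.404). March3 had too few reads for a test, with 1 exonic read in DMSO and 9 after dTAG-13. Its intronic reads numbered 3 in DMSO and 66 after dTAG-13, and all dTAG-13 libraries were above the DMSO libraries. March10 and March11 had no exonic read. The difference between March1 and March8 was not tested.

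Of 12 genes for proteins that MARCH ligases tag, or that oppose MARCH1 or lie upstream of it, 6 were tested in exons. Of these, 2 were higher and 1 lower (14.3% and 14.0% over all tested genes). Tfrc, the transferrin receptor, rose from 324 ± 8.19 to 460 ± 19.2 CPM (log2 0.51, adjusted p = 1.38e-11). Slc3a2, the heavy chain CD98, rose by 0.19 (adjusted p = 0.000106). Il10rb, a chain of the receptor for interleukin 10, which raises March1 in monocytes, was lower in exons (log2 -0.35, adjusted p = 0.00548) but neither in introns (-0.01) nor in whole-gene counts (adjusted p = 0.0961). Cd86, the main other target of MARCH1, Cd83, which opposes MARCH1, and Il10 had no exonic read.

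CD74 is also a surface receptor for the cytokine MIF. Of 5 genes of that receptor, 3 were tested in exons and 1 was lower (14.0% over all tested genes). Mif fell from 198 ± 7.65 to 160 ± 14.2 CPM (log2 -0.31, adjusted p = 1.56e-05). Cd44, the signalling partner of CD74, had next to no exonic reads, and its intronic reads were 87, 43, 48 and 0 in DMSO and 4, 15, 24 and 4 after dTAG-13. These groups overlapped, with DMSO replicate 4 at 0 (log2 -2.13, adjusted p = 0.0331). By DESeq2 the adjusted p was 0.322, and the call was also lost without DMSO replicate 1 (-1.45) or 2 (-2.07) or dTAG-13 replicate 1 (-1.88), 2 (-2.20) or 4 (-1.81).

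Cells that use the class II pathway fully were looked for by their markers. The summed exonic level of 8 dendritic cell markers was 0.0541 to 0.261 CPM in DMSO and 0.218 to 0.415 CPM after dTAG-13, with Cd209a and Clec9a at 0. That of 7 macrophage and monocyte markers was 0.162 to 0.391 CPM in DMSO and 0.485 to 1.06 CPM after dTAG-13, with Cd14 and C1qa at 0. In these, Lyz2 was higher (log2 1.26, adjusted p = 0.0305). The 5 mature B cell markers summed to 29.7 to 34.5 CPM in DMSO and 34.05 to 38.8 CPM after dTAG-13. Of these, 3 were tested and 1 was higher, beside 14.3% of all tested genes. It was Cd55 (log2 0.26, adjusted p = 0.00246). Ighd (0.05, adjusted p = 0.772) and Cr2 (0.38, adjusted p = 0.275) did not pass. Ms4a1 had 14 exonic reads in DMSO and 3 after dTAG-13, too few for a test, and Fcer2a had no exonic read. The part of cells of these kinds in the changes of March1 and the class II genes was not tested.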

How the data were processed

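Stranded total RNA libraries of 4 DMSO and 4 dTAG-13 samples were assigned to groups from title and treatment. For each gene the authors deposited unnormalized counts, 1 table over exons and another over the whole gene, per the labels and the design text. Tools named in the submitters' processing notes are featureCounts (Subread 2.0.0), STAR 2.7.4a, DESeq2, deepTools 3.3.2 and SAMtools 1.10, with GRCm38.p4 and mm10 as builds. The role of each tool, the strand setting and the annotation release are not given in the sources used here. The authors' deposited table of DESeq2 results has, per the file headers, p-values raw and adjusted, log2 changes of exonic and intronic reads, and their standard errors. Only its log2 values, their standard errors and its names were used, and it lists March1 as Marchf1, matched through a RefSeq synonym. Whether its log2 values were shrunk is not stated.

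Intronic counts are whole-gene minus exon counts. The test was the quasi-likelihood F test of edgeR 4.0.16 under R 4.3.3, after TMM scaling and a low-count filter (filterByExpr with a minimum count of 10 and a minimum total of 15), with treatment as the only term and Benjamini-Hochberg adjustment over all tested genes, with a threshold of 0.05. All adjusted p-values in the text are from this test unless DESeq2 (1.42.0) is named, and each SE is that of the fitted log2 change. CPM use library sizes scaled by TMM, and a change of total RNA per cell would not show in them. Exonic and intronic changes were compared in 1 edgeR model over 16 columns with the library as a block. Levels per kb use the union of exons in GENCODE vM21. Alternatives were other normalization, count filters, DESeq2, a replicate block, whole-gene counts, a transcript length and leaving out each library.

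The genes and lists were chosen with earlier results of these data known. Named were all 10 genes, up to 4 of each list with the smallest exonic p past the threshold, up to 2 of each list that passed in only 1 of the exonic and intronic fits, flanking protein-coding genes, and the 5 named genes most like March1. Genes named as at 0, as too low for a test, as not passing, as overlapping or as copies fall outside this rule and were added after their values were seen. RefSeq windows were matched by symbol for 7 of the 10 genes and not for Ciita, Cd74 and H2-Ab1. Some genes that fall under the naming rule are not reported here.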

Additional observations from a re-analysis of the deposited data

Results flagged for a closer look

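Single libraries that stand apart were looked for among the 22 sets of 4 libraries (each gene with enough reads, exonic or intronic, in each group), by the gap of the outermost library over the range of the group. The gap exceeded the 95% critical value of Dixon's test in 2 of them, and chance gives about 1 in 20. Exonic H2-DMb1 was 1.23 CPM in dTAG-13 replicate 4, and 1.89 to 1.96 CPM in the other 3 dTAG-13 libraries (gap 0.904 of the range). Intronic H2-Ob was 31.4 CPM in dTAG-13 replicate 4, and 39.0 to 40.01 CPM in the others (gap 0.878 of the range). Both are in the library with the highest share of intronic reads, 27.3%, whose part in this was not tested.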

How the results depend on the processing

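Of the 10 genes, those with enough reads (7 in exons, 4 in introns) kept the sign of their fitted change in all 104 exonic and 56 intronic values under the alternatives, March1 between 3.05 and 3.62 in exons and between 3.72 and 3.90 in introns (log2). For the wider pathway, only genes picked by the naming rule were scored here, each of which passed in exons or introns. Of their 807 alternative values, with those of the exon-intron difference included, 36 lost the threshold and 4 gained it. Pathway genes that passed in neither were not scored. Genes whose exonic and intronic change differed numbered 14 lower and 15 higher, but 53 and 57 with no count filter, and 8 to 13 and 3 to 14 with 1 library left out. Pathway genes lower in introns went from 7 to between 4 and 7 with 1 library left out, the 4 without dTAG-13 replicate 1. By the length of the longest annotated transcript, DMSO levels in CPM per kb were 33.7 for H2-Ab1, 21.5 for H2-Ob, 10.6 for Cd74, 0.883 for H2-DMb1, 0.160 for March1 and 0.118 for H2-DMa, in the same order. Replicate numbers did not pair the samples: same-numbered libraries correlated by -0.024 to 0.045 in exons and -0.005 to 0.058 in introns. With a replicate block, 1884 genes were higher and 1869 lower in exons, against 1841 and 1808 without it. Depth limits Ciita, H2-Aa, H2-Eb1 and H2-DMa, for which a few reads decide the value. The authors' deposited exonic log2 changes are 0.235 for Cd74, 0.243 for H2-Ab1, 0.564 for H2-Oa and 0.334 for H2-Ob. In introns they are 0.2015 for H2-Ab1 and 0.441 for H2-Ob.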
